A study of Mus musculus with 2 samples.

Results

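Tumour neutrophils were taken as the 191 of 18252 cell barcodes that carried the neutrophil transcripts S100a8 and S100a9 together with neutrophil receptor genes in droplet 3′ single-cell RNA sequencing of mouse melanoma. B16F10, a transplantable mouse melanoma line, had been injected into mice whose myeloid cells lack c-Rel (genotype LysM-cre x RelloxP/loxP) and into WT mice (genotype LysM-cre x Rel+/+), and tumours of similar size were taken 2 weeks later. Viable CD45+ cells, CD45 being a surface protein of blood-lineage cells, were sorted from 5 pooled tumours per genotype, so each genotype is 1 sample. Both genotypes carry the LysM-cre transgene, which drives recombination in neutrophils, monocytes and macrophages, and each pool hides the spread between its mice. No age of the mice is stated in the labels.

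The deposited matrix holds 2 libraries that are marked only by the barcode ending, and nothing in the files or labels ties an ending to a genotype. Values are therefore given for library 1 and library 2, no genotype was assigned to either, and no comparison between c-Rel knockout and WT was made. A barcode was kept as a neutrophil with at least 500 UMIs (unique molecular identifiers, which count captured RNA molecules), at most 10% mitochondrial UMIs and less than 0.4% of UMIs from the melanoma genes Pmel, Mlana, Dct and Tyrp1. It also had no UMI of Cd3d, Cd3e or Cd3g, at most 1 UMI over C1qa, C1qb and C1qc, at least 10 UMIs over S100a8 and S100a9, and at least 2 UMIs over Csf3r, Cxcr2, G0s2, Retnlg and Il1r2. The barcodes were selected on the measured levels of these genes, which are therefore given as a description. All counts and ratios between cell sets below are descriptions too, since cells of 1 library are not replicates, and their 95% intervals cover counting error only.

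Neutrophils are short-lived granulocytes that are made in the bone marrow under the growth factor G-CSF, read by the receptor Csf3r, and that enter tissue along chemokine gradients read by Cxcr2. They make their granule proteins in a fixed order while they mature in the marrow, with primary granule proteases made earliest and gelatinase made last, and they stop making most of them before they leave. In tumours they secrete chemokines and interleukin 1, and immature or suppressive forms are counted among myeloid-derived suppressor cells. The NF-kB subunit c-Rel, encoded by Rel, acts in immune cells by binding the promoters of cytokine genes.

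The matrix has 7688 barcodes and 49129318 UMIs in library 1 and 10564 barcodes and 73507228 UMIs in library 2, with a median of 1588 and 4290 UMIs per barcode. Neutrophils were shallow in both libraries. They had a median of 649.5 UMIs (range 504 to 6427) and 299 genes in library 1, and of 630 UMIs (range 501 to 3409) and 324 genes in library 2. All of library 1 had at least 500 UMIs, whereas library 2 reached down to 409 UMIs. Of 3609 barcode sequences that both libraries hold, 1 belonged to a neutrophil of library 1 and 0 to a neutrophil of library 2. No doublet caller was run. Over markers of other cell types, T cell genes were at 0 UMIs in both libraries, of which the rule itself had set the 3 Cd3 genes to 0 and not the other 5 (Trac, Trbc2, Cd8a, Cd4 and Lck), and the 6 fibroblast and endothelial genes were also at 0. Macrophage markers summed to 347 CPM (UMIs of a gene over all UMIs of the cell set, scaled to the same total in each set) in neutrophils of library 1 and 1172 CPM in those of library 2, against 25257 and 23470 CPM in the macrophage set, with Mrc1 and Mertk at 0 in the neutrophils. Monocyte markers summed to 819 CPM and 1206 CPM in neutrophils, against 5256 and 5039 CPM in the monocyte set. C1qa, C1qb and C1qc are among the macrophage markers, and they were capped in neutrophils and required in the macrophage set. The monocyte set was itself selected on Ly6c2, Ccr2, Csf1r and Ms4a6c. These contrasts are therefore partly set by the rules that made the sets. NK cell markers had 38 UMIs in neutrophils of library 1, 23 of them in 1 barcode, and 5 UMIs in library 2. B cell markers had 37 UMIs in library 1, 16 of them in 1 barcode, and 2 UMIs in library 2. Melanoma markers summed to 395 and 904 CPM in neutrophils, against 586 and 957 CPM in the monocyte set. The rule had itself limited Pmel, Mlana, Dct and Tyrp1 in neutrophils. Of 6 eosinophil genes, Epx, Prg2, Ccr3 and Il5ra were at 0 UMIs in neutrophils of both libraries, and Ear2 and Siglecf had 5 UMIs together in library 1, 4 of them in 1 barcode, and 0 in library 2.

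Neutrophils were a small share of the sort. Library 1 held 124 and library 2 held 67, which is 3.79% (95% exact binomial interval 3.16 to 4.50%) and 2.25% (1.75 to 2.85%) of barcodes within the UMI, mitochondrial and melanoma limits. Of all barcodes within the UMI and mitochondrial limits they were 1.72% (1.43 to 2.05%) in library 1 and 0.701% (0.544 to 0.890%) in library 2. The share was higher in library 1, but library 2 alone has 51 barcodes that met every limit except the UMI minimum, at a median of 460 UMIs, and library 1 was deposited with none under 500 UMIs. Both shares count only barcodes of at least 500 UMIs, so these 51 barcodes enter neither value. The difference in share depended on the UMI limit. With at least 1000 UMIs per barcode 22 and 20 neutrophils were left and the shares were nearly equal. With no UMI minimum library 2 held 118 neutrophils. The cause of the difference was not tested.

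S100a8 and S100a9, the calcium-binding subunits of calprotectin, filled 15.1% of neutrophil UMIs in library 1 and 11.2% in library 2. Per barcode the share ran from 0.617% over a median of 15.8% to 36.1% in library 1, and from 0.377% over 10.3% to 34.5% in library 2. S100a8 had 81872 and 53304 CPM and S100a9 had 69496 and 58295 CPM in libraries 1 and 2. Retnlg, a secreted resistin-like protein of neutrophils, had 16767 and 13833 CPM, and G0s2, an inhibitor of triglyceride lipase, had 3660 and 988 CPM. The decoy receptor gene Il1r2 had 1493 and 871 CPM, Csf3r had 607 and 234 CPM, and Cxcr2 had 202 and 67.0 CPM. The rule's threshold on S100a8 and S100a9 lay in a thinly filled range, with 3 and 5 neutrophils at 10 to 14 UMIs just inside it and 3 and 3 barcodes at 5 to 9 UMIs just outside. On the receptor genes, 5 and 8 neutrophils stood at the minimum of 2 UMIs, and 9 and 5 barcodes with 1 UMI stayed outside.

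Genes outside the rule were set beside the name. Ly6g, the surface antigen used to sort mouse neutrophils, had 25 UMIs (241 CPM) in library 1 and 5 UMIs (83.7 CPM) in library 2, against 0 UMIs in the monocyte and macrophage sets. Fpr1, the receptor for bacterial formyl peptides, had 250 and 134 CPM in neutrophils, against 5.13 and 3.53 CPM in monocytes. Mmp9, the protease of gelatinase granules, had 559 and 385 CPM in neutrophils, against 0 UMIs in monocytes and macrophages. That is 181-fold and 36.4-fold the level that 3 UMIs would give in monocytes of libraries 1 and 2.

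To describe neutrophils against the closest cells, their summed levels were set against 431 and 203 barcodes of a monocyte set (S100a8 and S100a9 together under 10 UMIs, at least 3 UMIs over Ly6c2, Ccr2, Csf1r and Ms4a6c) and 421 and 521 barcodes of a macrophage set (at least 10 UMIs of C1q genes). A gene was measured with at least 30 UMIs over both sets in each library, and it was called higher or lower at a CPM ratio of at least 2 or at most 0.5 in both libraries. Of 1594 genes measured against monocytes, 84 were higher in neutrophils (5.27%) and 329 lower (20.6%). The median gene had a log2 ratio of −0.75, −0.94 in library 1 and −0.46 in library 2. List medians of all neutrophils over monocytes are therefore to be read against −0.75. A list median between −0.75 and 0 lies above the median gene. With the median ratio set to 1 in each library the calls were 202 higher and 102 lower, and with S100a8, S100a9 and mitochondrial genes left out of the totals they were 107 and 233. Against macrophages 5469 genes were measured, of which 317 were higher in neutrophils (5.8%) and 819 lower (15.0%). Setting the median ratio to 1 gave 473 and 475 there, and totals without S100a8, S100a9 and mitochondrial genes gave 398 and 620. In that comparison 1672 of the genes had 0 UMIs in the neutrophils of a library, and the median log2 ratio was −0.38 with such genes at their limit of 3 UMIs and −1.16 with them ranked lowest. For some lists, results are also given for the 107 and 47 neutrophils in which S100a8 and S100a9 took at least 5% of UMIs. This set was chosen with the data in view, and calls of further lists differed there too. Against monocytes 84 of its 1461 measured genes were higher and 441 lower. Its median log2 ratio was −0.96, against which its list medians are to be read. Monocytes had a median of 1938 and 1161 UMIs per barcode and macrophages 3868 and 2838, well above neutrophils. The monocyte set also carried transcripts of other cell types. B cell markers summed to 2612 and 120 CPM in it, against 356 and 33.5 CPM in neutrophils. Dendritic cell markers summed to 145 and 98.9 CPM, against 48.2 and 67.0 CPM in neutrophils. NK cell markers summed to 146 and 60.0 CPM, against 366 and 83.7 CPM in neutrophils. The part of such cells in the genes called lower was not tested.

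Granule genes were the group that stood highest. Of 17 genes for proteins of secondary and tertiary granules, 15 could be measured against monocytes, 12 were higher and 1 was lower, with a median log2 ratio of 2.60. Lcn2, the siderophore-binding lipocalin, had 8205 CPM in neutrophils of library 1 and 4203 CPM in those of library 2, against 61.6 and 237 CPM in monocytes and 5.36 and 3.67 CPM in macrophages. The ratio to monocytes was 133 (103 to 176) and 17.8 (13.5 to 23.6). Neutrophils stood above both sets in both libraries, and monocytes of library 2 were higher than those of library 1. Wfdc21, a small secreted protein of the whey acidic protein family, had 1897 and 2261 CPM in neutrophils, against 10.3 and 74.1 CPM in monocytes. Mmp8, neutrophil collagenase, had 944 and 1022 CPM in neutrophils, against 86.2 and 173 CPM in monocytes, a ratio of 10.9 and 5.90. Slpi, an inhibitor of neutrophil elastase, Hp, which encodes haptoglobin, Pglyrp1, a peptidoglycan-binding protein, and Cd177, a surface protein of neutrophils, were higher as well. Their ratios to monocytes ran from 3.53 for Hp in library 2 to 47.3 for Pglyrp1 in library 1. Ngp, a cathelicidin-related protein, had 5605 and 3852 CPM in neutrophils, against 1 and 0 UMIs in monocytes. Camp, the cathelicidin antimicrobial peptide, had 1185 and 1022 CPM, against 0 UMIs in monocytes of either library, at least 385-fold and 96.4-fold higher. Lyz2, the lysozyme whose promoter drives LysM-cre, was the exception. It had 1599 and 1608 CPM in neutrophils, against 5380 and 4159 CPM in monocytes, a ratio of 0.30 (0.25 to 0.35) and 0.39 (0.31 to 0.48). Chil3, a chitinase-like secreted protein, had 1088 and 1624 CPM in neutrophils, against 2133 and 3863 CPM in monocytes, a ratio of 0.51 and 0.42 that did not pass in library 1. Primary granule genes were low. Ctsc, the list's most abundant gene, had 5 and 16 UMIs (48.2 and 268 CPM), against 507 and 470 CPM in monocytes. Prtn3 had 17 UMIs in library 1, 16 of them in 1 barcode, and 0 in library 2. Mpo and Ctsg, myeloperoxidase and cathepsin G, had 0 UMIs in both libraries, and Elane, neutrophil elastase, had 10 UMIs in library 1, all in 1 barcode, and 0 in library 2.

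**Figure D1:**
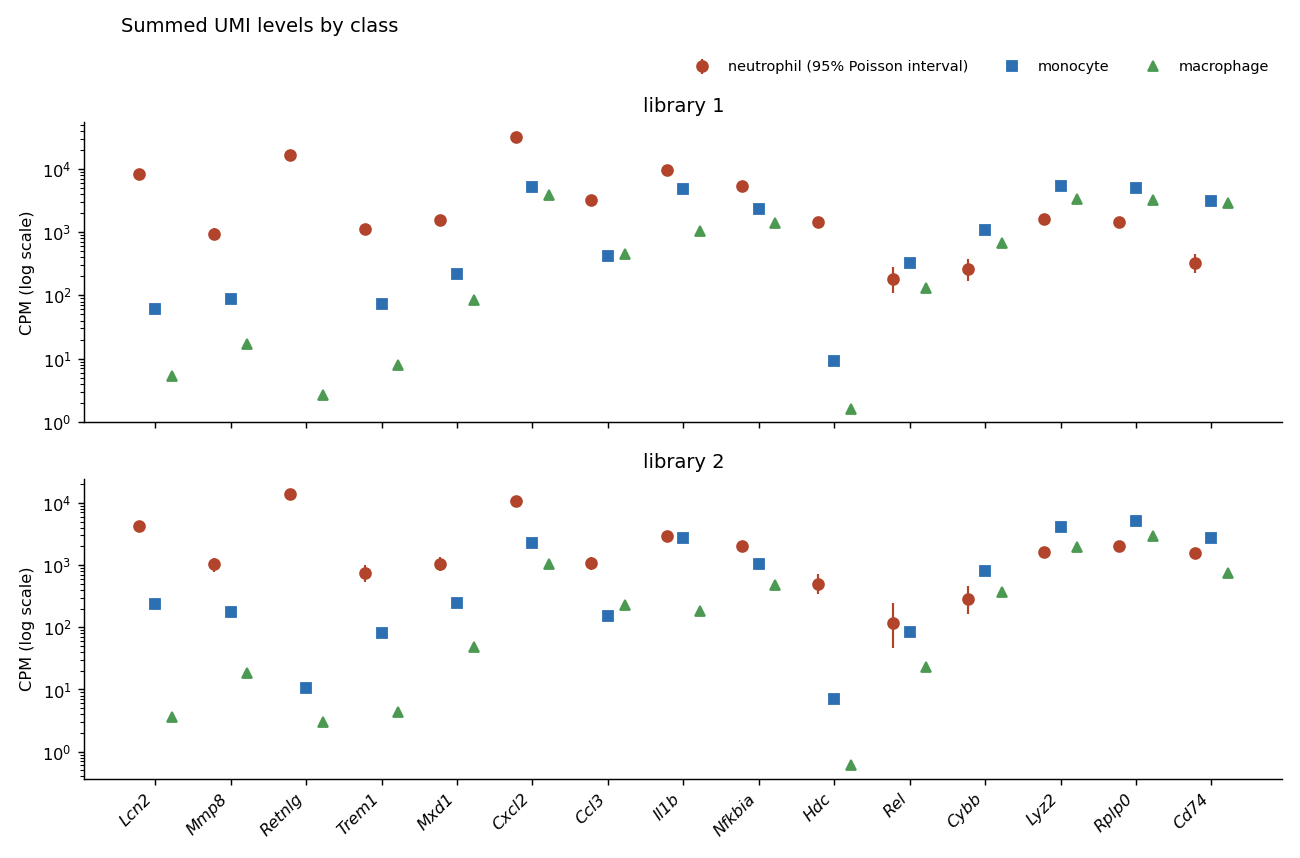
Summed level of 15 genes in neutrophils, monocytes and macrophages, in CPM on a log axis, with library 1 in the upper panel and library 2 in the lower. Bars on neutrophil points are 95% Poisson intervals and levels of 0 are not drawn. Lcn2 and Trem1 were highest in neutrophils in both libraries, while Lyz2, Cybb and Rplp0 were lower there than in monocytes. Retnlg is a gene of the rule that selected the neutrophils, so its level there is a description only.

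Cxcl2 and Ccl3 were the chemokine genes that stood high in neutrophils. Cxcl2, a ligand of Cxcr2 that draws neutrophils, had 31965 CPM in neutrophils of library 1 and 10684 CPM in those of library 2, against 5154 and 2295 CPM in monocytes and 3807 and 1047 CPM in macrophages. The ratio to monocytes was 6.20 (5.93 to 6.48) in library 1 and 4.66 (4.17 to 5.20) in library 2. Neutrophils were above both sets in each library, and all 3 sets were higher in library 1. After each barcode was thinned to 500 UMIs, 92.7% of neutrophils in library 1 and 74.6% in library 2 had a Cxcl2 UMI (94.4% and 80.6% before thinning), against 1.46% and 2.92% of T cells, at a median depth of 649.5 and 630 UMIs in neutrophils and of 1310 and 1274 UMIs in T cells. Per 500 UMIs the lowest, median and highest neutrophil had 0, 13.5 and 89 Cxcl2 UMIs in library 1 and 0, 4 and 71 in library 2. Ccl3, a ligand of Ccr1, had 3265 and 1072 CPM in neutrophils, against 415 and 152 CPM in monocytes, a ratio of 7.87 and 7.06. Only 33.1% and 23.9% of thinned neutrophils had a Ccl3 UMI (37.9% and 31.3% before thinning), against 3.40% and 5.25% of T cells, so its UMIs were held by fewer barcodes than those of Cxcl2. Cxcl3, another Cxcr2 ligand, had 337 and 234 CPM in neutrophils, against 44.1 and 14.1 CPM in monocytes. It did not reach the UMI minimum in library 2, where its ratio to monocytes was 16.6 (5.21 to 69.3). Of 11 chemokines measured against monocytes, Cxcl2 and Ccl3 were higher and 4 were lower, and the median log2 ratio was −1.51. The lower ones were Ccl2 and Ccl7, which draw Ccr2-bearing monocytes, and Cxcl10 and Cxcl16, which draw T cells through Cxcr3 and Cxcr6. Ccl2 had 0 UMIs and 67.0 CPM in neutrophils, against 376 and 244 CPM in monocytes. Against macrophages Cxcl2 and Ccl3 were higher and 6 of 14 chemokines lower, Ccl8 among them with 0 UMIs in neutrophils of both libraries, against 1563 and 2444 CPM in macrophages.

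Cytokine genes gave a mixed picture. Il1b, which encodes the precursor of interleukin 1 beta, had 9640 and 2897 CPM in neutrophils, against 4784 and 2754 CPM in monocytes and 1028 and 184 CPM in macrophages. It was 2.02-fold (1.88 to 2.16) the monocyte level in library 1 and 1.05-fold (0.89 to 1.24) in library 2, so it was called higher against macrophages and not against monocytes. After thinning, 82.3% and 53.7% of neutrophils had an Il1b UMI (85.5% and 61.2% before thinning), against 1.46% and 2.04% of T cells. Hdc, the enzyme that makes histamine, had 1454 and 502 CPM in neutrophils, against 9.24 and 7.06 CPM in monocytes, a ratio of 157 (80.8 to 351) and 71.1 (18.1 to 614). It was the 1 cytokine-list gene of 5 measured that was higher against monocytes, and the list's median log2 ratio was 0.54. In neutrophils with at least 5% of UMIs from S100a8 and S100a9, Hdc had 1620.1 and 559.6 CPM but too few UMIs to be measured in library 2, Tgfb1 was lower of 4 genes and the median was −0.51. Against macrophages Il1b, Il1rn (the antagonist of the interleukin 1 receptor), Osm (oncostatin M) and Hdc were higher of 10 measured and Spp1, osteopontin, was lower, with a median log2 ratio of 0.77. Il1f9, an interleukin 1 family cytokine now called interleukin 36 gamma, had 32 and 5 UMIs in neutrophils, against 0 in monocytes and macrophages of both libraries. Il6 had 0 and 1 UMI and Il10 had 0 UMIs in both libraries, where 3 UMIs would be 28.9 and 50.2 CPM.

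The promoters of 4 of the genes just described, which neutrophils carry at high levels or share with NF-kB feedback, were read from RefSeq windows on GRCm38.p6 to show the sequence next to the values. They are the 2 Cxcr2 ligands, the NF-kB inhibitor gene Nfkbia and Il1b, each shown up to the base before its annotated transcript. Capitals mark the letters GGGANTTTCC, a form of the NF-kB binding sequence, on either strand; the letters were chosen after these sequences had been seen. The windows are chr5:90903749-90903870 on the plus strand for Cxcl2, chr5:90785951-90786100 on the plus strand for Cxcl3, chr12:55492648-55492797 on the minus strand for Nfkbia and chr2:129371140-129371289 on the minus strand for Il1b.
Cxcl2: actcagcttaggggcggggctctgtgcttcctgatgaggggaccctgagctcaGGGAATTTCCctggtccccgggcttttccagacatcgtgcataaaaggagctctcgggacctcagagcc
Cxcl3: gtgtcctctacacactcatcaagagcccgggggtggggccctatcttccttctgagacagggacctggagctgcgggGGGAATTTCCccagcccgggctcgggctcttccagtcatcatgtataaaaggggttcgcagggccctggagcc
Nfkbia: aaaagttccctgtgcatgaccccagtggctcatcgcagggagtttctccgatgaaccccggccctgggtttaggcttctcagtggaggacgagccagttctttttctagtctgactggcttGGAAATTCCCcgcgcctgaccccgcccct
Il1b: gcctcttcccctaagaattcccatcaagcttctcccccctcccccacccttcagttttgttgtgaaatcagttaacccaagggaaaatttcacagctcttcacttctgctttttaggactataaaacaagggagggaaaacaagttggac
The Cxcl2 and Cxcl3 windows carry the letters on the strand of the gene and the Nfkbia window on the other strand. The Il1b window does not hold these letters, which says nothing on binding there. Over the 250 bases before each start, 117 of 32851 promoter windows in the table (0.356%) hold the letters. Counted by gene, 112 of 27025 genes (0.414%) hold them. Of the lists, 3 of 11 chemokine genes with a window (Cxcl1, Cxcl2 and Cxcl3), 2 of 18 NF-kB genes (Nfkb2 and Nfkbia), 2 of 19 cytokine genes (Csf1 and Il6), 1 of 14 granule genes (Pglyrp1), 1 of 24 interferon response genes (Gbp5), 1 of 11 MHC class I genes (B2m) and 1 of 12 proliferation genes (Birc5) hold them, and the other lists have none. A match of letters is a description of the sequence and not a measured binding site. Cxcl1, with the same letters, had 0 and 2 UMIs in neutrophils.

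Receptor genes varied by family. Of 10 growth and chemotaxis receptors measured against monocytes, Ptafr, the receptor for platelet-activating factor, was higher and none lower, with a median log2 ratio of −0.10. Ccr1, which reads Ccl3, had 713 and 419 CPM in neutrophils, against 154 and 230 CPM in monocytes, a ratio of 4.63 in library 1 and 1.82 in library 2. At the 5% limit on S100a8 and S100a9, Ccr1 was higher and Ifnar1 lower of 8, with a median of −0.26. Against macrophages Ptafr, Ccr1, Cxcr4 (which reads Cxcl12), Ltb4r1 (a leukotriene B4 receptor) and Csf2rb (the common beta chain of the GM-CSF receptor) were higher of 14. Of 19 adhesion and lectin receptors measured against monocytes, 4 were higher and Fcgr2b, the inhibitory Fc receptor, was lower, with a median log2 ratio of 0.29. Trem1, which amplifies inflammatory signals in myeloid cells, had 1108 and 737 CPM in neutrophils, against 72.9 and 81.2 CPM in monocytes. The C-type lectin Clec4d had 1165 and 787 CPM in neutrophils, against 231 and 240 CPM in monocytes. Cd24a, a surface glycoprotein of neutrophils, had a ratio of 12.1 and 4.96, and Cd300lf, an inhibitory lipid receptor, of 6.26 and 6.10. All 4 were also higher against macrophages.

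Few genes of NF-kB feedback passed the threshold against monocytes and more against macrophages, and Rel, the gene the study deleted, had few UMIs. Nfkbia, which encodes the inhibitor I-kappa-B alpha and is itself induced by NF-kB, had 5441 and 2009.6 CPM in neutrophils, against 2355 and 1038 CPM in monocytes and 1414 and 474 CPM in macrophages. The ratio to monocytes was 2.31 in library 1 and 1.94 in library 2, so it passed the threshold against macrophages and not against monocytes. Of 10 genes of this list measured against monocytes, Nfkbid, a nuclear I-kappa-B protein, and Tnfaip2 were higher and Tnip3, an inhibitor of NF-kB signalling, lower, with a median log2 ratio of 0.46. In neutrophils with at least 5% of UMIs from S100a8 and S100a9, Tnfaip2 was higher and Nfkb1 and Tnip3 lower of 8, and the median was −0.13. Against macrophages 7 of 18 were higher and none lower, with a median log2 ratio of 0.71. Rel had 19 UMIs (183 CPM) in neutrophils of library 1 and 7 UMIs (117 CPM) in those of library 2, against 320 and 84.7 CPM in monocytes. The ratio was 0.57 (0.34 to 0.91) in library 1 and 1.38 (0.50 to 3.31) in library 2. After thinning, 6.45% and 2.99% of neutrophils had a Rel UMI (12.1% and 7.46% before thinning), against 7.78% and 6.41% of T cells, which LysM-cre does not target. At this depth Rel could not be used to say which library came from which genotype, and a 3′ tag need not lie in the deleted part of the gene. Of the other subunits, Nfkb1 had 57.8 and 67.0 CPM and Rela 77.0 and 67.0 CPM in neutrophils, with at most 8 UMIs per library.

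Among immediate early genes, 3 of 19 were higher against monocytes and none lower, with a median log2 ratio of 0.67. They were Egr1, a zinc-finger factor with a ratio of 4.24 and 11.5, Dusp1, a phosphatase that turns off MAP kinases, and Klf2, a factor of quiescent leukocytes. At the 5% limit on S100a8 and S100a9, Egr1, Klf2 and Btg2 were higher of 19 and none lower. Of 14 myeloid transcription factors, Mxd1, a repressor of Myc targets, and Litaf were higher and Irf8, which directs monocyte and dendritic cell fate, was lower. Mxd1 had 1531 and 1038 CPM in neutrophils, against 216 and 247 CPM in monocytes. Irf8 had 86.7 and 134 CPM in neutrophils, against 593 and 445 CPM in monocytes. Cebpb, a factor of emergency granulopoiesis, had 2417 and 988 CPM in neutrophils, against 778 and 674 CPM in monocytes, and passed in library 1 alone. The median log2 ratio of the list was 0.34.

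Of 30 genes listed for immunoregulatory tumour neutrophils, 12 could be measured against monocytes. Of these 4 were higher and none lower, with a median log2 ratio of 0.54. Acod1, which makes itaconate, had 1628 and 469 CPM in neutrophils, against 126 and 81.2 CPM in monocytes. Wfdc17, a secreted antiprotease-like protein, had 2042 and 4153 CPM in neutrophils, against 774 and 1695 CPM in monocytes, and it was the list's most abundant gene in library 2. The tetraspanin Cd9 had a ratio of 12.1 and 7.74 and the lactate exporter Slc16a3 of 3.55 and 2.49. Arg1, arginase, had 96.3 and 184 CPM in neutrophils, against 175 and 141 CPM in monocytes and 405 and 1162 CPM in macrophages, and was lower than in macrophages. Ptgs2, the prostaglandin-forming cyclooxygenase 2, had 279 and 67.0 CPM in neutrophils, against 97.5 and 23.8 CPM in macrophages, and was higher than in macrophages. Nos2, the inducible nitric oxide synthase, had 2 and 0 UMIs. Vegfa, the endothelial growth factor, had 3 and 2 UMIs.

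Oxidase genes split by subunit. Of 7 NADPH oxidase genes measured against monocytes, the cytosolic subunit Ncf1 (501 and 402 CPM in neutrophils, against 173 and 177 CPM in monocytes) and the GTPase Rac2 were higher. The membrane subunit Cybb was lower, with 260 and 285 CPM in neutrophils, against 1100 and 805 CPM in monocytes, a ratio of 0.24 and 0.35. The list's median log2 ratio was 0.38. Of 9 interferon response genes, Ifitm1, a membrane protein that restricts viral entry, and Slfn1 were higher, and Gbp2, Slfn5, Bst2 and Zbp1 were lower, with a median log2 ratio of −1.01. Ifitm1 had 3554 and 1758 CPM in neutrophils, against 526 and 611 CPM in monocytes, while Slfn5 had 0 UMIs in neutrophils of both libraries, against 208 and 141 CPM in monocytes. In neutrophils with at least 5% of UMIs from S100a8 and S100a9, Ifitm1 and Ifitm2 were higher and Gbp2 and Ifitm3 lower of 8. Within the S100 family beyond the rule genes, S100a11 was higher, with a ratio of 5.10 and 2.76, and S100a4 and S100a10 were lower. The list of survival genes had none of 6 past the threshold, while at the 5% limit on S100a8 and S100a9 Bax was lower. Mcl1, on which neutrophil survival depends, had 3467 and 1959 CPM in neutrophils, against 1389 and 1063 CPM in monocytes, a ratio of 2.50 and 1.84.

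Genes of protein synthesis and antigen presentation stood below the median gene. All 40 ribosomal protein genes were measured, 18 were lower than in monocytes and none higher, and the median log2 ratio was −1.41 against −0.75 over all genes. In neutrophils with at least 5% of UMIs from S100a8 and S100a9, 37 of the 40 were lower, with a median of −1.96 against −0.96 over all genes. Rplp0, of the ribosomal stalk, had 1464 and 2060 CPM in neutrophils, against 5039 and 5056 CPM in monocytes. Against macrophages none of the 40 passed in either direction, and their median log2 ratio was −1.06, between the 2 medians given above for all genes. Of 8 MHC class II genes, H2-DMb1, a peptide loading factor, and Cd86, a costimulatory ligand, were lower than in monocytes, and the median log2 ratio was −2.00. In neutrophils with at least 5% of UMIs from S100a8 and S100a9, 7 of the 8 were lower, Cd74 among them, with a median of −3.65. Cd74, the invariant chain, had 327 CPM in neutrophils of library 1 and 1557 CPM in those of library 2, against 3120 and 2729 CPM in monocytes, and passed in library 1 alone. Of its 93 UMIs in neutrophils of library 2, 87 lay in the 20 barcodes with under 5% of UMIs from S100a8 and S100a9. The 6 MHC class I genes had none past the threshold and a median log2 ratio of −1.12. At the 5% limit H2-K1 and Psmb8 were lower, with a median of −1.29. Of 20 hypoxia and glycolysis genes Hilpda, a lipid droplet protein, was higher, with a list median of −0.08, and of 8 stress response genes Ddit3, the factor CHOP, and Hmox1, haem oxygenase, were higher, with a list median of −0.21. In neutrophils with at least 5% of UMIs from S100a8 and S100a9, Pgk1, Hk2 and Ndrg1 were lower and none higher of 19 hypoxia and glycolysis genes, with a median of −0.42. There Ddit3 was higher and Hspa5 lower of 7 stress response genes, with a median of −0.37. Over all neutrophils Ddit3 had 250 and 469 CPM, against 31.8 and 84.7 CPM in monocytes. Proliferation genes were rare. Against macrophages 7 of 14 were lower, and Mki67 had 6 UMIs in library 1, all in 1 barcode, and 0 in library 2.

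**Figure D2:**
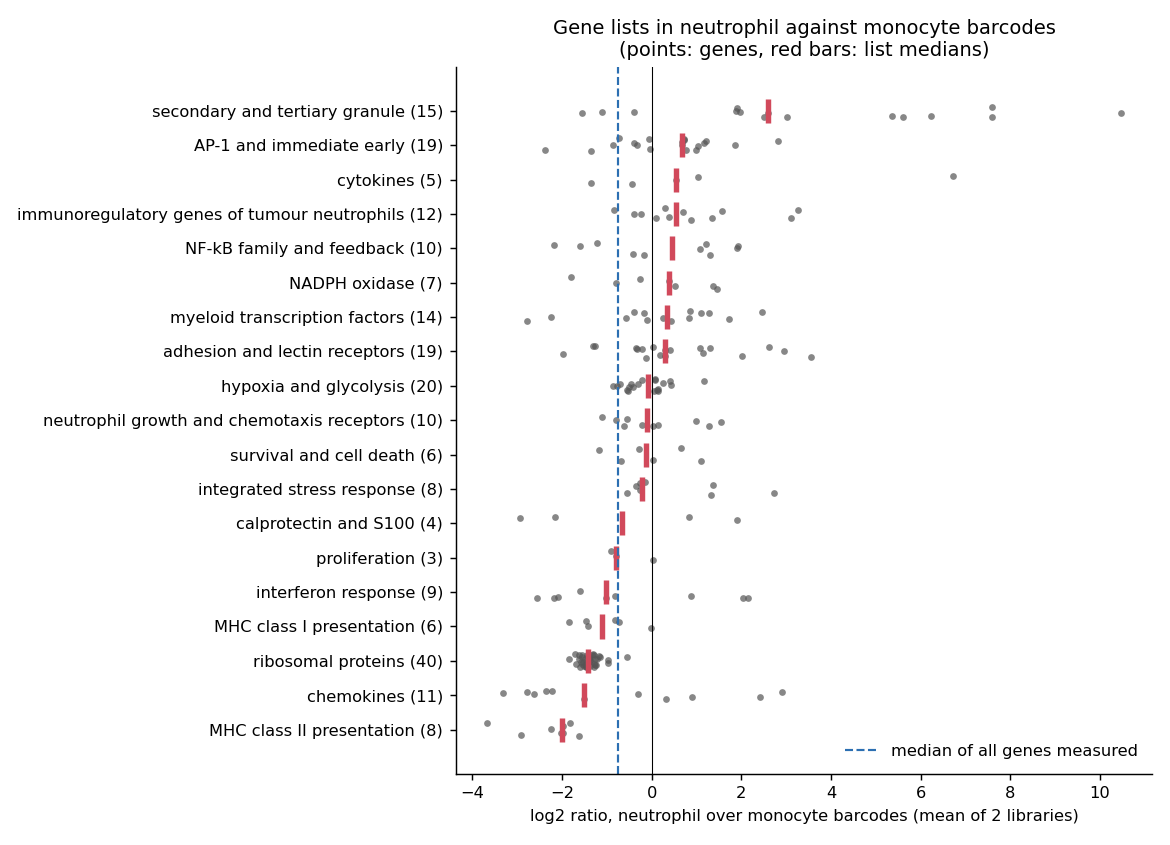
Log2 ratio of the summed level in neutrophils over monocytes, as the mean of both libraries, for each measured gene of the lists with at least 3 measured genes. Red bars are list medians and the dashed line is the median of all 1594 genes (−0.75); granule genes have the highest median (2.60) and MHC class II genes the lowest (−2.00).

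Over all genes measured, the highest ratios to monocytes were those of Ngp, Stfa2l1, Asprv1, Camp, Ltf, Hdc, Wfdc21, Lcn2, Pglyrp1, Hcar2, Lrg1 and Trem1. Asprv1, a retroviral-like aspartic protease known from skin, had 1300.2 and 1340 CPM in neutrophils and 0 UMIs in monocytes of both libraries, at least 422-fold and 126-fold higher. It was seen in 37.1% and 50.7% of neutrophils. Stfa2l1, a stefin-like protease inhibitor, had 1079 and 1022 CPM in neutrophils, against 0 and 1 UMI in monocytes, and it belongs to a cluster of near-identical genes between which 3′ reads may be split. Hcar2, a receptor for nicotinic acid and ketone bodies, had 1079 and 653 CPM in neutrophils, against 24.6 and 21.2 CPM in monocytes. Lrg1, a secreted leucine-rich glycoprotein, had 1021 and 486 CPM in neutrophils, against 36.9 and 28.2 CPM in monocytes. The lowest ratios were those of Ly6a, Ifi203, Fcgr1, H2-DMb1, Ms4a6d, Tcf4, Aif1, Mndal, Ifi207, Psmb10, Vcan and Plekho1. Fcgr1, the high-affinity Fc receptor of monocytes and macrophages, had 0 and 1 UMI in neutrophils, against 326 and 268 CPM in monocytes. Vcan, the matrix proteoglycan versican, had 3 UMIs in neutrophils of each library, against 363 and 448 CPM in monocytes. Each of these 12 had at most 6 UMIs in neutrophils of a library. Against macrophages, Ifitm6, an interferon-induced transmembrane protein gene of myeloid cells, joined the highest genes with 1762 and 1809 CPM in neutrophils, against 23.03 and 2.44 CPM in macrophages. The lowest there were Trem2, Ccl8, Dab2, Selenop, Cxcl16, Ccl7, Pf4, Ccl12, Apoe, Lgmn, Ccl2 and Mmp12. Apoe, the lipid carrier that macrophages release, had 299 and 1055 CPM in neutrophils, against 12108 and 12518 CPM in macrophages.

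Neutrophils were not alike among themselves. The granule genes Ngp, Camp and Ltf sat in a few barcodes. The 12 barcodes of library 1 and 11 of library 2 with at least 5 UMIs over these genes, a limit set with the data in view, held 97.9% and 92.8% of their UMIs, while 101 of 124 and 43 of 67 had none. S100a8 and S100a9 took a median of 28.7% and 28.8% of UMIs in the granule-rich barcodes, against 13.9% and 7.73% in the other neutrophils. Cxcl2 went the other way, with 7430 and 1447 CPM in granule-rich barcodes, against 37309 and 12032 CPM in the others. Il1b had 431 and 395 CPM in granule-rich barcodes, against 11647 and 3262 CPM in the others. Ccl3 had 162 CPM and 0 UMIs in granule-rich barcodes, against 3941 and 1228 CPM in the others. The order was the same in both libraries for all 3 genes. Lcn2 had 20890 and 16704 CPM in granule-rich barcodes, against 5442 and 2380 CPM in the others, Mmp8 had 2315 and 3288 CPM, against 645 and 691 CPM, and Cd177 had 1454 and 1052 CPM, against 152 and 134 CPM. Ly6c2, a surface antigen of monocytes and immature granulocytes, had 1561 and 1315 CPM in granule-rich barcodes, against 176 and 115 CPM in the others. Retnlg was present in both sets, with 24390 and 33539 CPM in granule-rich barcodes, against 15107 and 10957 CPM in the others. The limit of 5 UMIs took no account of depth. Granule-rich barcodes of library 1 had a median of 1089.5 UMIs, against 633 UMIs in the others. In library 2 the medians were 632 and 630 UMIs. In library 1 a single granule-rich barcode had 6427 UMIs. It held 208 of the 566 Ngp UMIs and 118 of the 388 Lcn2 UMIs of that set. It therefore weighs on the summed levels there. These levels follow a split made on granule genes of the same barcodes and are a description with no test.

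**Figure D3:**
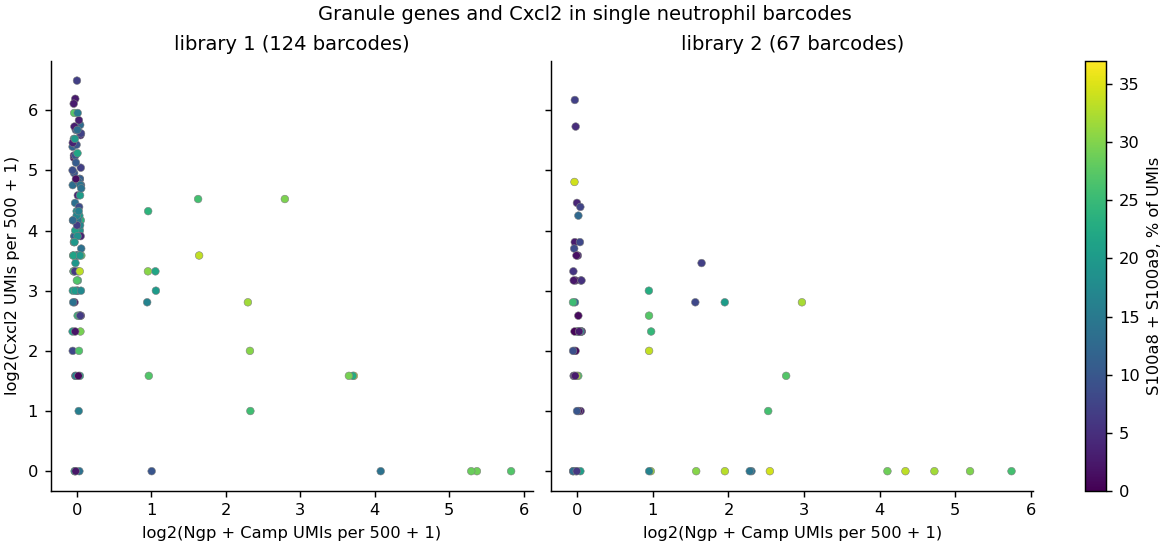
UMIs of Ngp and Camp per 500 UMIs against UMIs of Cxcl2 per 500, both as log2(UMIs + 1), 1 point per neutrophil, library 1 left and library 2 right, coloured by the percentage of UMIs from S100a8 and S100a9. Barcodes with the most Ngp and Camp lie at low Cxcl2, and most barcodes have no Ngp or Camp.

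Across barcodes thinned to 500 UMIs, the same split showed in rank correlations over the 106 genes compared, given as a description since genes of 1 barcode share its 500 UMIs. Ngp had Spearman's rho of 0.65 and 0.58 with Camp in libraries 1 and 2, 0.46 and 0.64 with S100a8, and −0.40 and −0.43 with Cxcl2. Cxcl2 had 0.56 and 0.29 with Nfkbia, 0.52 and 0.33 with Ccl3, 0.43 and 0.48 with Fth1, the heavy chain of ferritin, and −0.61 and −0.52 with Tmsb4x, which encodes the actin-binding thymosin beta 4. Retnlg was most like S100a8, at 0.60 and 0.74. The deepest neutrophil of library 1, with 6427 UMIs, also had 3 UMIs of Apoe and no other marker of T, NK, B, dendritic cells or macrophages. Of genes of granulocyte precursors and dividing cells, it held 10 of 10 Elane UMIs, 16 of 17 Prtn3 UMIs, 15 of 15 Fcnb UMIs, 208 of 582 Ngp UMIs, 6 of 6 Mki67 UMIs and 9 of 9 Top2a UMIs of the library's neutrophils.

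**Figure D4:**
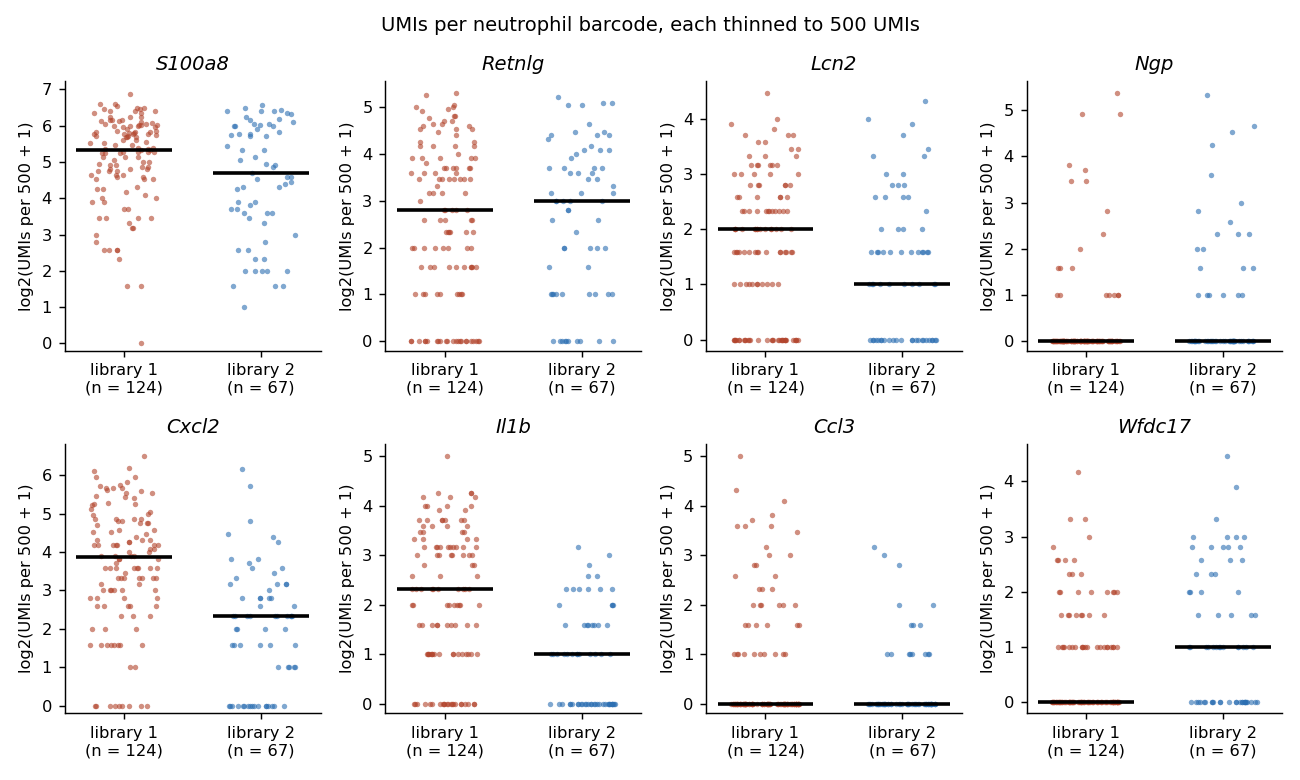
Level of 8 genes in every neutrophil after thinning to 500 UMIs, as log2(UMIs + 1), with library 1 (124 barcodes) left of library 2 (67 barcodes) and black bars at the medians. Cxcl2 and Il1b have higher medians in library 1 (13.5 and 4 UMIs per 500) than in library 2 (4 and 1), and Ngp is at 0 in most barcodes of both.

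A further part of the barcodes that the rule kept as neutrophils carried little S100a8 and S100a9. Under 5% of UMIs came from them in 17 barcodes of library 1 and 20 of library 2, at a median depth of 743 and 1252 UMIs, against 643 and 580 UMIs in the 107 and 47 barcodes at 5% or more. Retnlg had 1662 and 2940 CPM and Lcn2 had 268 and 472 CPM in these barcodes. Their Cd74 level was 1180 and 3158 CPM, against 141 and 187 CPM in barcodes at 5% or more, and Rplp1, a ribosomal stalk protein, had 2252 and 4501 CPM, against 1209 and 1897 CPM. Both levels were higher in these barcodes, which were a larger part of the neutrophils in library 2. Monocytes had 3120 and 2729 CPM of Cd74, above the low barcodes of library 1 and below those of library 2. H2-Ab1 had 536 and 2178 CPM in the low barcodes, against 1637 and 1758 CPM in monocytes. Ngp, Camp and Ltf had 0 UMIs in the low barcodes of both libraries. Their Cxcl2 level was 40212 and 10889 CPM, against 5154 and 2295 CPM in monocytes, and their Ccl3 level 8579 and 1343 CPM. Markers of T, NK, B, dendritic cells and macrophages summed to at least 3 UMIs in 10 neutrophils of each library. These markers had 58 UMIs in the 20 low barcodes of library 2, against 23 UMIs in the 47 others, and 30 UMIs in the 17 low barcodes of library 1, against 86 UMIs in the 107 others. In library 2 Apoe had 1742 CPM in the low barcodes, against 466 CPM in the others, and in library 1 it had 107 CPM, against 340.4 CPM. Ctss, a lysosomal protease of macrophages and other presenting cells, had 322 and 1416 CPM in the low barcodes, against 117 and 248.7 CPM in the others. The part of other cells in the values of these barcodes was not tested.

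The libraries differed in some cytokine and chemokine genes of neutrophils. Of 672 genes with at least 30 UMIs in neutrophils of both libraries together, 72 were at least 2-fold higher in library 1 (10.7%) and 105 at least 2-fold lower (15.6%), with a median log2 ratio of −0.08. Cxcl2 was 2.99-fold (2.75 to 3.26), Il1b 3.33-fold (2.83 to 3.93) and Ccl3 3.05-fold the level of library 2. Nfkbia was 2.71-fold, Hdc 2.89-fold, Acod1 3.47-fold and Tnf 2.77-fold (1.43 to 5.88) the level of library 2. Of 8 cytokine genes measured, Il1b, Tnf, Osm and Hdc were higher and Spp1 lower, with a median log2 ratio of 1.05, and of 7 chemokines Cxcl2 and Ccl3 were higher and none lower, with a median of 0.52. Granule genes differed little, with Pglyrp1 the 1 gene of 15 past the threshold and a median log2 ratio of 0.21. Retnlg was 1.21-fold and Mmp8 0.92-fold the level of library 2.

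Of the genes higher in library 1, Cxcl2, Il1b and Nfkbia were also higher there in monocytes and macrophages. Acod1 had 126 and 81.2 CPM in monocytes of libraries 1 and 2, and Hdc had 9 and 2 UMIs in them. In monocytes Cxcl2 was 2.25-fold, Il1b 1.74-fold and Nfkbia 2.27-fold the level of library 2, and in macrophages 3.64-fold, 5.59-fold and 2.98-fold. Wfdc17 went the other way in neutrophils, at 0.49-fold (0.41 to 0.59), and was 0.46-fold and 0.43-fold in monocytes and macrophages. Cebpb differed in neutrophils, at 2.45-fold, beside 1.15-fold in monocytes and 1.27-fold in macrophages. Lcn2 was 1.95-fold in neutrophils and 0.26-fold in monocytes, and the difference between the ratios was not tested. Rel was 1.56-fold (0.63 to 4.39) the level of library 2 in neutrophils, where 19 and 7 UMIs cannot show a difference, and 3.78-fold (2.49 to 5.99) in monocytes and 5.80-fold (4.10 to 8.44) in macrophages. With 1 library of each kind, a difference of genotype and a difference of sample handling or sequencing cannot be told apart.

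**Figure D5:**
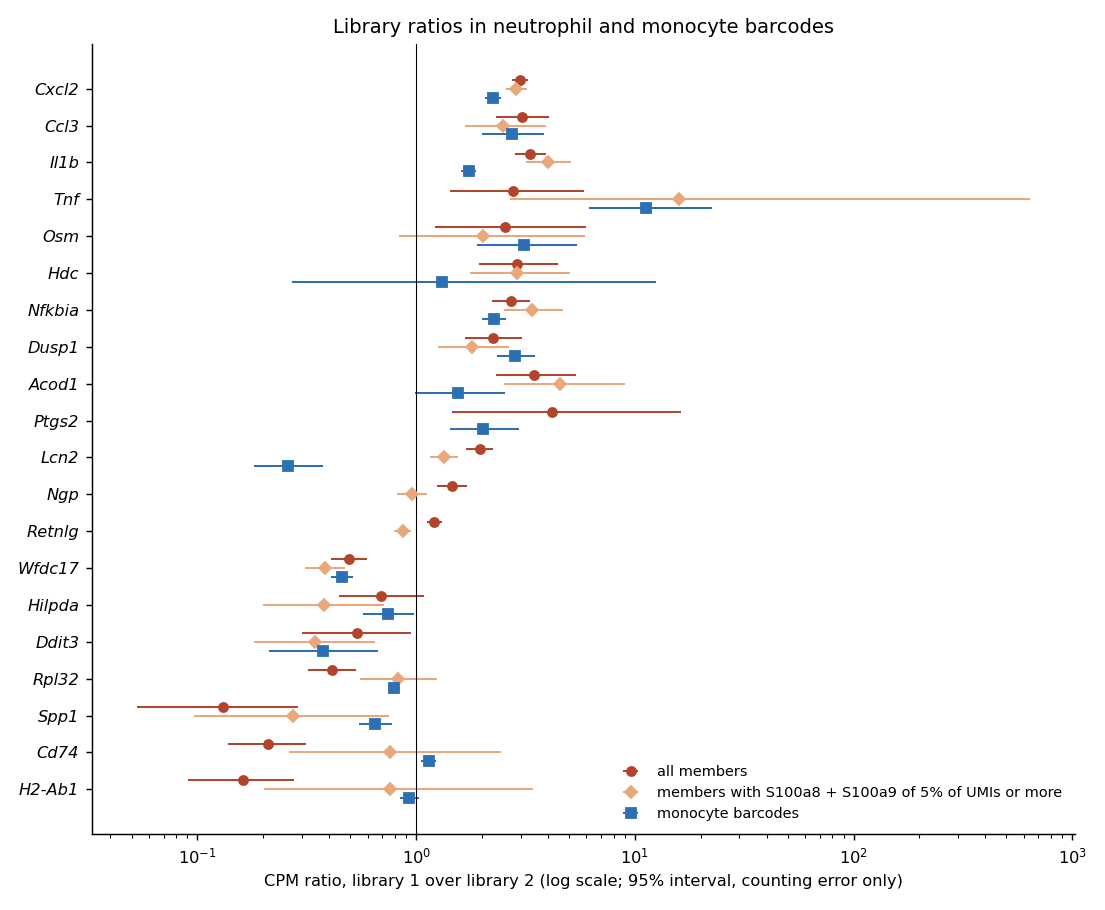
Ratio of the summed level in library 1 over library 2 on a log axis, for 20 genes in all neutrophils, in neutrophils with at least 5% of UMIs from S100a8 and S100a9, and in monocytes, with 95% intervals of counting error; a ratio with 0 UMIs in a library is not drawn. Cxcl2, Il1b, Ccl3 and Nfkbia lie above 1 in all 3 sets and Wfdc17 below 1 in all 3.

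Part of the library difference moved with the barcodes low in S100a8 and S100a9. Over all neutrophils 16 of 39 ribosomal protein genes were lower in library 1, with a median log2 ratio of −0.98, and so were all 5 MHC class II genes measured, with a median of −2.35. Among neutrophils with at least 5% of UMIs from S100a8 and S100a9, 473 genes were measured, with 43 higher and 21 lower in library 1. Of these, 29 of the higher and 11 of the lower genes were also called over all neutrophils. Of the 72 higher and 105 lower genes over all neutrophils, 19 and 49 had too few UMIs to be measured again. No MHC class II gene had enough UMIs there, and of 38 ribosomal protein genes 1 was higher and none lower, with a median of −0.30. In those barcodes Cxcl2 was 2.87-fold, Il1b 4.01-fold, Nfkbia 3.40-fold and Wfdc17 0.38-fold the level of library 2. Hypoxia and glycolysis genes were lower in library 1 there in 4 of 13, namely Hilpda, Slc2a3 (a glucose transporter), Tpi1 (a glycolytic enzyme) and Ero1l (an oxidase of the endoplasmic reticulum), with a median log2 ratio of −0.82. Over all neutrophils 2 of 17 were lower, Slc2a3 and Mif, with a median of −0.54. Ddit3 was 0.53-fold over all neutrophils and 0.34-fold in those barcodes.

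Among single genes, Ccrl2, a receptor that presents chemerin, had 1069 CPM in library 1 and 151 CPM in library 2, 7.09-fold (3.60 to 15.9). Slc7a11, the cystine transporter, had 1021 and 218 CPM, 4.69-fold (2.63 to 9.10), and Ptgs2 had 279 and 67.0 CPM, 4.17-fold (1.46 to 16.3). Ssh2, Dusp16, Mrgpra2b and Il1f9 were from 3.68-fold to 8.05-fold the level of library 2, with 28 to 32 UMIs in library 1 and 2 to 5 in library 2. The stefin genes Stfa1 and BC100530 were lower in library 1, at 0.15-fold (0.07 to 0.30) and 0.16-fold (0.06 to 0.37), whereas their neighbour in sequence Stfa2l1 had 1079 and 1022 CPM. Reads of these near-identical genes may have been split between them. The largest ratios were those of the haemoglobin genes Hbb-bs, Hba-a1, Hba-a2 and Hbb-bt, with 15169 CPM in library 1 and 33.5 CPM in library 2 for Hbb-bs. They sat in 2 barcodes of library 1, with 2297 of 2918 UMIs and 741 of 2133 UMIs from haemoglobin, and no other neutrophil of library 1 had more than 2 such UMIs. Gzma, a granzyme of NK and T cells, had 36 UMIs in library 1, in 2 barcodes.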

How the data were processed

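Droplet 3′ libraries of CD45+ tumour cells were made with the 10x Genomics kit and sequenced on a HiSeq, per the labels' protocols. Each deposited value is a raw UMI count of a gene in a barcode. Cell Ranger and mm10 are named per the submitters' processing notes, and software version 3.0.2 per the file headers. How the 2 libraries were combined, and whether their depth was equalised, is not stated in the material used. The authors deposited 1 filtered matrix in which a barcode ending is the only mark of a library, and all barcodes of it were read.

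UMIs were summed per cell set and library and scaled to CPM. Intervals at 95% are exact Poisson for levels, Clopper-Pearson for shares and conditional binomial for ratios. They cover counting error only. A count of 0 was given a limit of 3 counts per library. The 21 genes that define the sets and 35 repeated symbols were left out of calls. Thinning drew 500 UMIs per barcode with a fixed seed, which left no neutrophil out. T cells for background shares had at least 2 UMIs of Cd3 genes. Of 400 genes in 20 lists, 397 were found. The members and lists were chosen with earlier results of these data known. Named genes are the rule genes, Rel, up to 6 of the most abundant genes of each list, and the 12 highest and 12 lowest ratios per comparison; other genes, such as Fpr1, Nos2 and Vegfa, were named after their values were seen. Alternatives changed the rule's limits, depth, gene minimum and scaling. The ratio code was tested on simulated data. Python 3.11.15, numpy 2.4.6, scipy 1.17.1, pandas 2.3.3 and matplotlib 3.10.9 were used. Promoter windows come from RefSeq on GRCm38.p6.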

Additional observations from a re-analysis of the deposited data

Results flagged for a closer look

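For 5 genes the interval of the ratio of neutrophils to monocytes lay wholly on opposite sides of 1 in the 2 libraries; the difference between the ratios was not itself tested. Fabp5, a fatty acid binding protein, had 453 and 1959 CPM in neutrophils of libraries 1 and 2, against 753 and 949.8 CPM in monocytes, a ratio of 0.601 in library 1 and 2.06 in library 2. In library 2, 55 of its 117 neutrophil UMIs came from 1 barcode. The lysosomal protease gene Ctsl had a ratio of 0.405 in library 1 and 1.53 in library 2, where 28 of 53 UMIs came from 1 barcode. Hspa1b, a heat shock chaperone, had a ratio of 0.142 and 3.88, on 1 and 18 neutrophil UMIs, of which 10 in library 2 came from 1 barcode. The ratio of Ninj1, which encodes a membrane protein of cell lysis, was 0.672 and 1.71 on 29 and 36 UMIs, and that of Sfr1, a DNA recombination factor, was 0.373 and 2.19 on 7 and 18 UMIs, with at most 4 UMIs per barcode.

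Library 2 holds 51 barcodes that met every limit of the rule except the UMI minimum, and no comparison above uses them. They are 16.6% (12.6 to 21.3%) of its 307 barcodes under 500 UMIs and ran from 420 to 498 UMIs. Their levels were 100068 CPM for S100a8, 26879 CPM for Retnlg, 24525 CPM for Cxcl2, 4665 CPM for Il1b, 10229 CPM for Wfdc17 and 5864 CPM for Lcn2, with 0 UMIs of Cd74. The Cxcl2 level lies between the 31965 CPM of neutrophils in library 1 and the 10684 CPM of those in library 2.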

How the results depend on the processing

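No paired analysis was possible because each genotype is 1 sample and barcodes carry no replicate number; there are no replicates to leave out. With receptor genes at 4 UMIs or more, the share in library 2 was 1.72% of barcodes within the limits and 59 genes were lower in library 1. With at least 1000 UMIs per barcode the share was 1.08% in library 1 and 1.05% in library 2, and higher and lower genes numbered 24 and 105 against monocytes, 207 and 262 against macrophages, and 27 and 66 between libraries. With no UMI minimum the share in library 2 was 3.70%. Thinning to 500 UMIs gave 49 and 211 genes against monocytes, 124 and 384 against macrophages and 56 lower in library 1. Means of CPM per barcode gave 510 lower than in monocytes. A gene minimum of 10 UMIs gave 197 and 602 against monocytes, 513 higher than in macrophages, and 224 and 331 between libraries. No gene minimum gave 395 and 531, 680 higher than in macrophages, and 471 and 1158. A median ratio set to 1 gave 202 and 102 against monocytes and 475 lower than in macrophages. With S100a8 and S100a9 at 5% of UMIs or more the share in library 2 was 1.58%, and 43 genes were higher and 21 lower in library 1. There the haemoglobin genes had log2 ratios of −1.41 for Hbb-bs and Hbb-bt and −1.99 for Hba-a1. Without the 2 haemoglobin-rich barcodes, which held nearly all the UMIs, Hbb-bt had −0.73. At the 5% limit Hbb-bs had 3 UMIs in library 1 and 0 in library 2, and Hbb-bt had 0 in all neutrophils of library 2. A 0 was set at its limit of 3 UMIs, so the negative values of these 2 genes show no change of direction. Other causes of these values were not tested. Of 1075 values of named genes under alternatives, 70 moved by more than their interval in the same direction. The sign changed in 4, which are the haemoglobin values above. The 5% limit, no UMI minimum, and the sets without haemoglobin-rich or granule-rich barcodes were added with the data in view. The shallow barcodes limit low genes, since 3 UMIs are 28.9 CPM in library 1 and 50.2 CPM in library 2.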
